A study of Mus musculus with 8 samples.

Results

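The genes described here are 37 genes of sterol and fatty acid synthesis, taken by symbol from a raw count table of 24537 genes. They comprise 18 enzymes of sterol synthesis, 5 genes that regulate or carry sterols and 14 enzymes of fatty acid synthesis, desaturation and elongation. The RNA came from EpCAM-positive cells sorted by flow cytometry from pancreatic tumours of FVB/NJ mice, with 1 library for each of 8 tumours. All 8 mice carried the same tumour-driving alleles, among them Trp53 f/f, with Rosa26LSL-Luc and Pdx1-Cre, in which the Pdx1 promoter drives Cre in the pancreatic lineage. Loss of Trp53 and the luciferase reporter are thus shared by both groups. The mice were 44 to 49 days old when the tumours were taken. The 4 tumours labelled KO were Lifr f/f, with both alleles of the receptor for leukemia inhibitory factor floxed. The 4 labelled WT comprised 2 Lifr f/+ tumours (WT 1 and WT 2) and 2 Lifr +/+ tumours (WT 3 and WT 4). The f/+ mice also carry Cre, so 1 Lifr allele can recombine in these controls. The labels describe tumours dissected individually, and the p-values measure the spread between tumours.

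Sterols are built from acetyl-CoA through mevalonate, farnesyl diphosphate, squalene and lanosterol, and the last steps convert lanosterol to cholesterol. Fatty acid synthesis starts from the same cytosolic acetyl-CoA, which ATP citrate lyase makes from citrate. Both routes are controlled by the SREBP transcription factors, held in the endoplasmic reticulum by Insig proteins when sterols are plentiful and escorted by Scap to the Golgi for cleavage when they are not. SREBPs bind promoters at sterol regulatory elements, commonly beside the CCAAT box of NF-Y. In pancreatic tumour cells both routes supply membranes and protein lipidation.

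Promoters of 5 genes are shown, chosen among the members whose RNA differed between the groups to set those with several SREBP-related motifs in this stretch beside those with none in it. Each is the 200 bases before the RefSeq start (GRCm38.p6, the build of the counts), 5′ to 3′ in the direction of transcription, with capitals for the core of a sterol regulatory element (TCACNCCAC) or for the CCAAT box, read on either strand and so also as ATTGG.
Hmgcs1 (chr13:119690151-119690350, plus strand): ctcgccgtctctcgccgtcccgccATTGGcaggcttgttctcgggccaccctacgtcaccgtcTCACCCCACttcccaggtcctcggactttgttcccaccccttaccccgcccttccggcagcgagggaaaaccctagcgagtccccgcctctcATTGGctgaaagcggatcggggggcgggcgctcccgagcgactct
Msmo1 (chr8:64733579-64733778, minus strand): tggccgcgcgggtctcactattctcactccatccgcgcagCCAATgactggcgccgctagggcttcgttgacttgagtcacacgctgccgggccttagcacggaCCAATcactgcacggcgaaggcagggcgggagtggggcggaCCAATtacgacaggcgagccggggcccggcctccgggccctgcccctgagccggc
Nsdhl (chrX:72918321-72918520, plus strand): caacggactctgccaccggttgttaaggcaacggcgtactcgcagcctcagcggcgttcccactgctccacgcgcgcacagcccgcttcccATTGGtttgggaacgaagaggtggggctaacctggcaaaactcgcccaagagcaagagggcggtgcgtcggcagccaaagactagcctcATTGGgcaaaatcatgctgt
Acat2 (chr17:12960726-12960925, minus strand): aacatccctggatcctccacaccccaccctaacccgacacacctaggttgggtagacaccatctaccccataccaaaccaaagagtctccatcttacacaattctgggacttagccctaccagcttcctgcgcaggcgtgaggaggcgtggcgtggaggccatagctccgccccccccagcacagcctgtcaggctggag
Acly (chr11:100528001-100528200, minus strand): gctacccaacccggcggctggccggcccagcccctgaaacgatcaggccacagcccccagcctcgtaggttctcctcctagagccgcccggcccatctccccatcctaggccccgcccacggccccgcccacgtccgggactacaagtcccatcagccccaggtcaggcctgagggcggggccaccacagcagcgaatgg
Hmgcs1 holds 2 CCAAT boxes and 1 sterol element core, Msmo1 holds 3 boxes, Nsdhl holds 2, and neither Acat2 nor Acly holds either motif in the stretch shown. Acly has a CCAAT box just after its start, outside that stretch.

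RefSeq promoter windows, which run from 250 bases before to 50 after the start, were matched by symbol for 30 of the 37 genes. Fdps, Fdft1, Sqle, Stard4, Scd1, Scd2 and Fads1 were not matched. The 30 genes had 37 windows, and a gene counted as holding a motif if any of its windows held it. For Dhcr7, Pmvk and Srebf1 the CCAAT box was found only in windows away from the start of the counted transcript. A CCAAT box was present in 14 of the 15 matched sterol enzymes (93.3%), all but Acat2. It was present in 3 of 4 regulators and in 7 of 11 fatty acid enzymes, against 41.1% of 27025 genes in the RefSeq table. Among those also tested for RNA differences below it was present in 42.4%. The sterol element core was found in Hmgcs1 alone among the members and in 1.4% of all genes with windows. Another motif, the E-box CACGTG, was held by 3 of 15 sterol enzymes, 2 of 4 regulators and 1 of 11 fatty acid enzymes. It was held by 8.1% of all genes and by 11.2% of the genes that were also tested for RNA differences below. Motifs were searched on both strands, and no matches of different motifs overlap in the sequences shown. As 14 of the 15 matched sterol enzymes held a CCAAT box, its presence could not separate them by their RNA. It was in 5 of the 6 matched sterol enzymes that were lower in tumours labelled KO. It was also in all 9 matched sterol enzymes that did not pass the test. Fdps, Fdft1 and Sqle, also lower, were not matched. A match describes the letters of the window only.

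Levels are given as CPM, counts scaled to a common library size with the TMM method (edgeR's correction for differences in library composition). Differences are log2 fold changes, KO minus WT, with their standard error (SE). A gene is called when its adjusted p, from edgeR's quasi-likelihood test with Benjamini-Hochberg adjustment over the 14728 genes tested, is below 0.05. Libraries held 14938875 to 22698340 counts. All 37 genes passed the filter on low counts. Lifr itself was higher in tumours labelled KO, at 150 to 220 CPM against 71.8 to 126 (log2 fold change 0.90, SE 0.19, adjusted p = 0.0121), so every direction below rests on the labels. Epcam, the surface protein used for the sort, was lower in tumours labelled KO, at 419, 360, 406 and 499 CPM against 748, 802, 890 and 660 (-0.88, SE 0.13, adjusted p = 0.00519). Of 22 epithelial markers, 17 were called lower and 0 higher, with a summed level of 4422 to 6016 CPM against 8011 to 10727. All 16 macrophage markers were called higher, with a summed level of 23578 to 30600 CPM against 9207 to 16294. Acinar markers summed to between 1350 and 32615 CPM in the KO group and 355 and 6821 in the WT group. All 11 tested had estimates above 0 (median 2.57), and with this wide spread none was called. Of 10 fibroblast markers, 9 had estimates above 0 (median 1.16) and 2 were called higher, Dpt and Fap, with a summed level of 774 to 4258 CPM against 416 to 1534. These shifts move with every result below on CPM, and their part in those results was not tested. In such bulk samples, fewer cells of a type and less RNA per cell cannot be told apart.

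Of the 18 sterol synthesis enzymes, 9 fell in tumours labelled KO, 0 rose and 9 did not pass the test (the edgeR test above), with a median log2 fold change of -0.46. Across all genes tested, 21.8% were called, 10.8% lower and 11.1% higher, with a median of 0.01. In 16 of the 18 the estimate was below 0. The same 9 enzymes had all 4 tumours labelled KO below all 4 labelled WT, an arrangement found for 12.3% of all genes (13.1% had the reverse, 25.5% either). Summed over the 18 enzymes, the level was 714 ± 55.4 CPM in the KO group and 929 ± 115 in the WT group (SD, n = 4 each), with ranges of 666 to 794 and 787 to 1053.

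**Figure D1:**
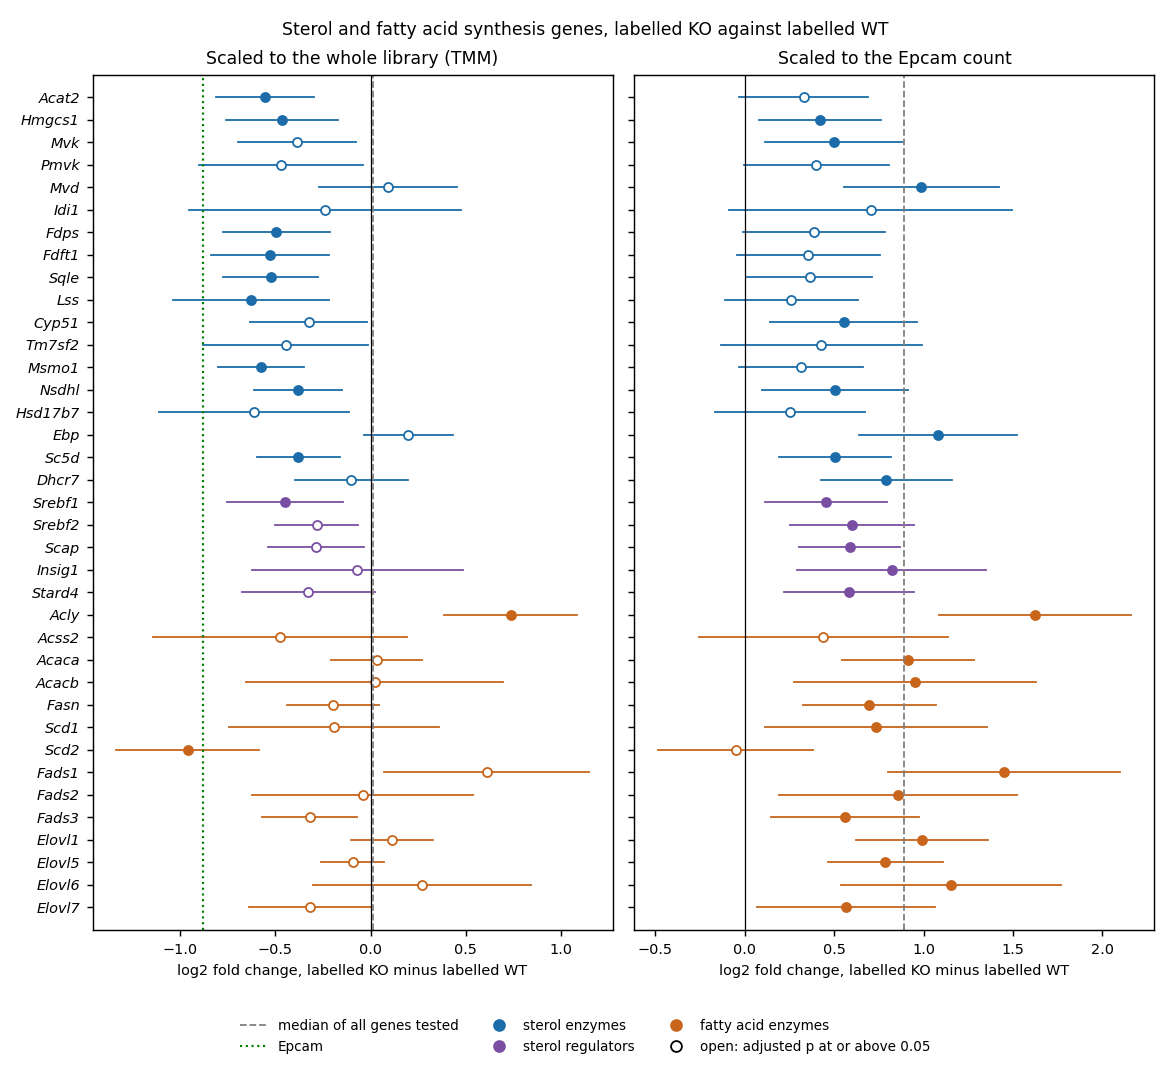
Log2 fold change (KO minus WT, horizontal axis) of each of the 37 genes with its 95% confidence interval, ordered by role, on CPM (left) and relative to Epcam (right). Filled points were called, dashed lines mark the median of all genes on each scale and the dotted line marks Epcam. The sterol enzymes sit mostly below 0 on CPM, with Mvd and Ebp above it, while Acly and Scd2 lie at opposite ends of the fatty acid enzymes.

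The first steps join acetyl-CoA units and make mevalonate. Acat2, the cytosolic thiolase that makes acetoacetyl-CoA, measured 12.1, 12.1, 14.5 and 14.1 CPM in the tumours labelled KO and 18.8, 18.1, 22.2 and 18.5 in those labelled WT. Every KO value lay below every WT value, and the log2 fold change was -0.55 (SE 0.11, adjusted p = 0.0114). Acat2 belongs to a family with similar copies, so reads could be shared. Hmgcs1, the synthase that makes HMG-CoA, measured 135, 108, 113 and 123 CPM against 195, 142, 184 and 141. The gap between its groups was narrow, from KO 1 at 135 to WT 4 at 141, and the log2 fold change was -0.47 (SE 0.13, adjusted p = 0.0338). Mvk, mevalonate kinase, measured 12.2, 12.1, 12.2 and 14.2 CPM against 18.2, 13.7, 19.5 and 14.9. Its KO 4 value lay above WT 2, and it did not pass the test (-0.39, adjusted p = 0.0769). Pmvk, which adds the next phosphate, had KO 4 at 35.5 CPM among the WT values of 27.9 to 47.5 (-0.47, adjusted p = 0.109). Mvd, the decarboxylase that yields isopentenyl diphosphate, was at 36.4 ± 5.48 against 34.2 ± 6.95 CPM (0.09, adjusted p = 0.72). The counted Mvd transcript is a non-coding RefSeq form. Idi1, the isomerase of isopentenyl diphosphate, was near the limit of detection at 1.40 ± 0.346 against 1.64 ± 0.587 CPM, from 20 to 56 counts a library (-0.24, adjusted p = 0.624).

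From farnesyl diphosphate to lanosterol every enzyme was called lower. Fdps, which makes farnesyl diphosphate, measured 19.9, 15.3, 17.0 and 16.1 CPM in the tumours labelled KO against 23.9, 20.2, 27.5 and 24.7 (log2 fold change -0.49, SE 0.12, adjusted p = 0.0234). KO 1 and WT 2 were the closest values, and the groups did not overlap. Fdft1, squalene synthase, the first enzyme committed to sterols, measured 34.4, 25.2, 30.8 and 26.6 CPM against 41.5, 34.4, 49.2 and 43.7 (-0.53, SE 0.14, adjusted p = 0.0266). KO 1 and WT 2 gave the same rounded value for Fdft1, so its groups only just separated. Fdft1 shares 774 exonic bases with Ctsb on the opposite strand. Sqle, the squalene epoxidase, measured 59.5, 45.4, 59.6 and 48.4 CPM against 77.9, 70.5, 84.0 and 73.7 (-0.52, SE 0.11, adjusted p = 0.0123). Here the groups were well apart, with the highest KO value more than 10 CPM below the lowest WT value. Lss, which closes the ring to lanosterol, measured 31.9, 22.2, 34.6 and 30.1 CPM against 43.7, 38.1, 60.9 and 41.2 (-0.63, SE 0.18, adjusted p = 0.0376). WT 3 stood above the other tumours for Lss, whose estimate was the most negative of the 18 enzymes.

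After lanosterol the enzymes divided. Msmo1, the oxidase that starts removal of the paired methyl groups, had the smallest adjusted p of all 37 genes, at 77.8, 64.1, 62.4 and 62.0 CPM against 105, 91.4, 108 and 92.4 (log2 fold change -0.57, SE 0.10, adjusted p = 0.00693). Only KO 1 came near the WT range. Nsdhl, the dehydrogenase that acts after it, measured 36.9, 34.4, 29.6 and 30.5 CPM against 44.1, 37, 44.2 and 45.6 (-0.38, SE 0.10, adjusted p = 0.0302). KO 1 and WT 2 were almost level. Sc5d, the desaturase of the sterol ring, measured 46.4, 37.3, 40.0 and 41.7 CPM against 57.6, 50.3, 58.4 and 48.8 (-0.38, SE 0.09, adjusted p = 0.0239). Its groups did not overlap. The other 5 did not pass the test. Cyp51, the lanosterol demethylase, was at 82.3 ± 12.5 against 103 ± 14.6 CPM (-0.33, adjusted p = 0.119), and KO 1 at 101 lay among the WT values. Tm7sf2, a sterol reductase, was at 12.4 ± 1.63 against 16.9 ± 4.20 CPM (-0.45, adjusted p = 0.129). Hsd17b7, which reduces the keto group left by Nsdhl, had one of the larger estimates but wide spread, at 27.2 ± 6.42 against 41.6 ± 10.6 CPM (-0.61, adjusted p = 0.0788). Ebp, the isomerase that shifts the ring double bond, measured 60.8, 63.0, 62.0 and 51.4 CPM against 47.3, 47.3, 52.2 and 60.1 (0.20, 95% interval -0.04 to 0.43, adjusted p = 0.204). Ebp and Mvd were the only sterol enzymes with an estimate above 0. Dhcr7, the final reductase of one arm, was at 51.8 ± 1.47 against 55.5 ± 10.6 CPM (-0.10, interval -0.39 to 0.19, adjusted p = 0.616).

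**Figure D2:**
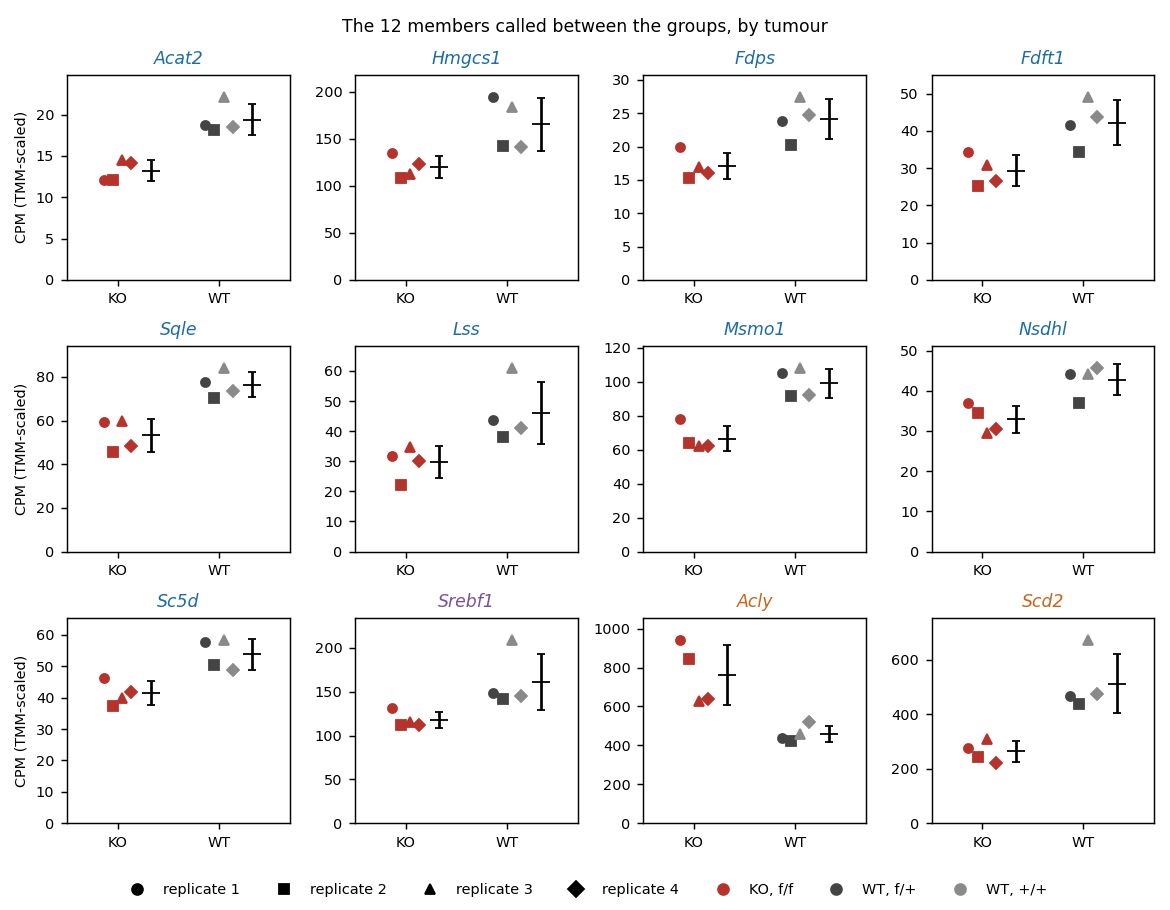
CPM in each tumour (vertical axis, starting at 0) for the genes called between the groups; points are tumours, red for KO f/f, dark grey for WT f/+ and light grey for WT +/+, shapes are replicate numbers, and the bar beside each group is its mean with SD. Acly is the only gene shown with the KO tumours above the WT tumours, and WT 3 is the highest point for Scd2 and Srebf1.

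Of the 5 regulators 1 fell, against 10.8% of all genes called lower, and all 5 estimates were below 0 (median -0.29). Srebf1, which encodes SREBP-1, the member that favours fatty acid genes, measured 131, 112, 116 and 112 CPM against 149, 142, 209 and 145 (-0.45, SE 0.13, adjusted p = 0.0429). WT 3 lay far above the other tumours, and the remaining WT values were close above KO 1. Srebf2, which encodes SREBP-2, the member that favours sterol genes, measured 225, 191, 194 and 207 CPM against 265, 218, 271 and 240 (-0.28, adjusted p = 0.0675). KO 1 was above WT 2, so its groups overlapped. Scap, the escort of SREBPs, measured 92.3, 76.3, 79.4 and 99.5 CPM against 116, 99.0, 116 and 93.9 (-0.29, adjusted p = 0.0991). KO 4 lay among the WT values. Insig1, the retention protein and itself an SREBP target, measured 93.3, 63.1, 66.8 and 67.6 CPM against 107, 50.5, 88.8 and 58.4. Its WT values spanned the whole KO range, and the interval of the log2 fold change ran from -0.62 to 0.48 (-0.07, adjusted p = 0.863). Stard4, a cytosolic cholesterol carrier, was at 44.9 ± 5.31 against 56.3 ± 12.2 CPM (-0.33, adjusted p = 0.162).

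The fatty acid enzymes did not share a direction. Of 14, Acly rose, Scd2 fell and 12 did not pass the test, with a median log2 fold change of -0.07. Called genes were thus no more frequent here than among all genes, of which 11.1% were higher and 10.8% lower. Their summed level was 1724 ± 191 CPM in the KO group and 1686 ± 138 in the WT group (SD, n = 4 each). Acly, the ATP citrate lyase that supplies acetyl-CoA to both routes, measured 942, 844, 630 and 640 CPM against 437, 422, 460 and 519. All KO tumours were above all WT tumours, KO 1 and KO 2 furthest (0.73, SE 0.15, adjusted p = 0.0124). Without KO 1 and WT 2, the tumours with the most acinar marker RNA in each group, Acly just missed the threshold (0.58, adjusted p = 0.052). In that fit 6.33% of all genes were called higher, against 11.1% with all tumours. Scd2, a stearoyl-CoA desaturase that makes monounsaturated fatty acids, measured 276, 245, 311 and 223 CPM against 467, 437, 673 and 474. The groups were far apart even without WT 3, the highest value, and the estimate was the most negative of the 37 genes (-0.96, SE 0.16, adjusted p = 0.00697). Its neighbour and near copy Scd1 measured 18.2, 28.1, 36.0 and 15.9 CPM against 26.4, 30.4, 29.9 and 25.2 (-0.19, adjusted p = 0.605). The KO values of Scd1 lay on both sides of the WT values. Reads shared among the Scd copies make the split between them uncertain.

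**Figure D3:**
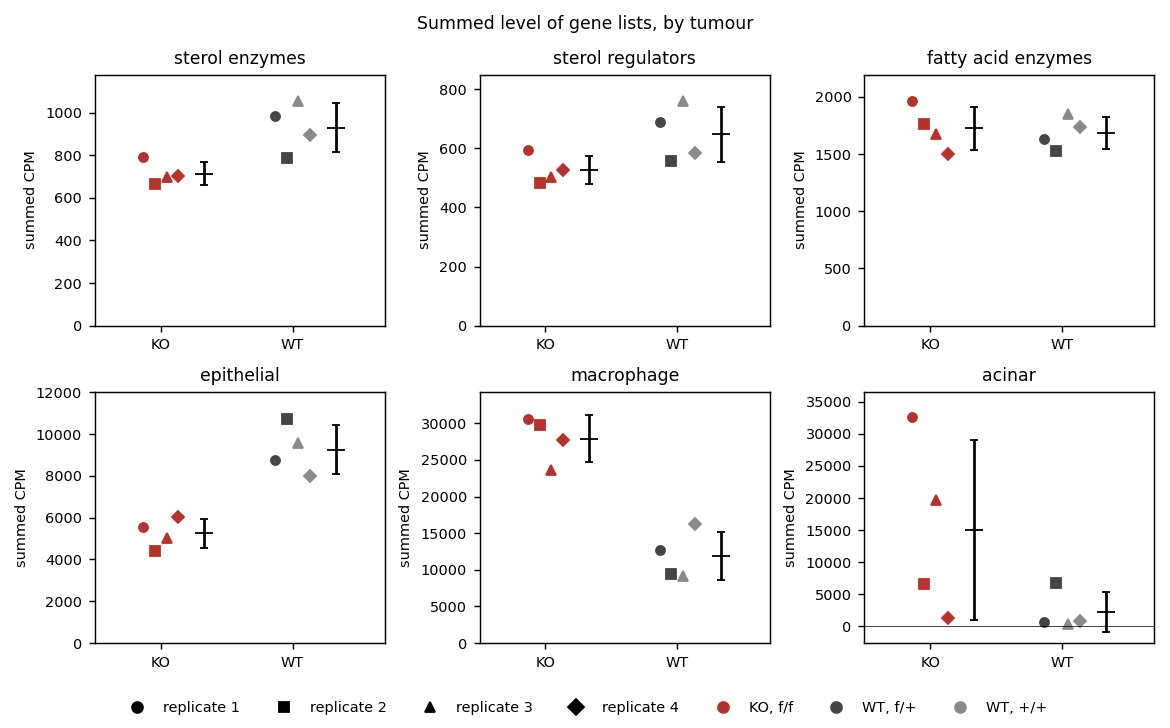
Summed CPM (vertical axis) of the 3 roles and of the epithelial, macrophage and acinar markers in each tumour; red points are KO f/f, dark grey WT f/+ and light grey WT +/+, shapes are replicate numbers, and the bar beside each group is its mean with SD. The sterol enzyme sums overlap only through KO 1 (794), which lies above WT 2 (787), the fatty acid sums overlap, and the epithelial and macrophage sums are apart in opposite directions.

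The steps between acetyl-CoA and palmitate gave small estimates. Fasn, the fatty acid synthase, measured 218, 169, 196 and 161 CPM against 213, 214, 227 and 200 (-0.20, interval -0.44 to 0.04, adjusted p = 0.216). KO 1 was within the WT range and the other KO values were below it. Acaca, the cytosolic acetyl-CoA carboxylase, was at 23.0 ± 1.39 against 22.5 ± 2.69 CPM, with an interval of -0.21 to 0.27 around 0.03. Its mitochondrial counterpart Acacb was at 4.44 ± 1.41 against 4.35 ± 1.28 CPM (0.02, interval -0.65 to 0.70). Acss2, which makes acetyl-CoA from acetate, was at 11.5 ± 3.58 against 15.9 ± 5.54 CPM (-0.48, adjusted p = 0.276).

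Among the desaturases of polyunsaturated fatty acids, Fads1 measured 106, 100, 96.9 and 103 CPM against 88.7, 44.9, 45.7 and 87.7. The WT tumours fell into a high pair and a low pair, each made of 1 f/+ and 1 +/+ tumour, and all lay below the KO tumours. With that spread the difference did not pass the test (0.61, SE 0.24, adjusted p = 0.0996). Fads2, which acts earlier in the same route, was at 30.3 ± 11.2 against 31.1 ± 2.66 CPM (-0.04, interval -0.62 to 0.54). Fads3, a related desaturase, was at 51.5 ± 6.15 against 64.3 ± 6.55 CPM (-0.32, adjusted p = 0.0686). The elongases, which lengthen fatty acids, had estimates of 0.11 for Elovl1, -0.09 for Elovl5, 0.27 for Elovl6 and -0.32 for Elovl7, with adjusted p from 0.145 to 0.476. None of the 4 was called.

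**Figure D4:**
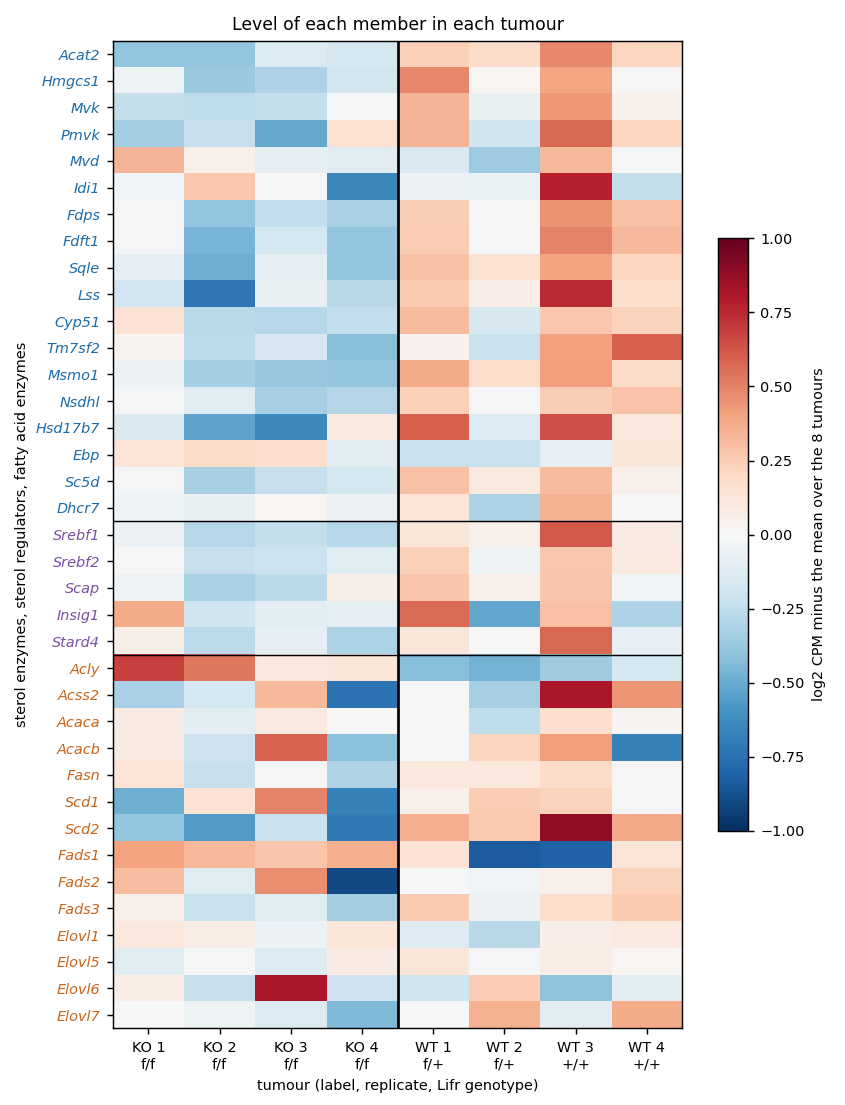
Log2 CPM of each of the 37 genes (rows, by role) in each tumour (columns), shown as the difference from the gene's mean over the 8 tumours. Most sterol enzymes are below their mean in the 4 KO columns and highest in the WT 3 column, while Acly and Fads1 are above their means in the KO columns.

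Within the groups, certain tumours were often the highest or the lowest for the sterol enzymes, more so among tumours labelled WT. WT 3 had the highest level of all 8 tumours for 12 of the 18 enzymes, and WT 2 was the lowest tumour labelled WT for 14. Among tumours labelled KO, KO 1 was the highest for 9 enzymes and KO 2 the lowest for 8. Of the 14 fatty acid enzymes, WT 2 was likewise the lowest tumour labelled WT for 9, while WT 3 was the highest of all 8 tumours for 4. Among tumours labelled KO, KO 4 was the lowest for 8 of them and KO 3 the highest for 7. The enzymes of 1 tumour share a library and its scaling, so these counts are not independent. The same counts were not made over all genes, so an order shared by the whole library would look the same.

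Calls of single sterol enzymes depended on which tumours were included. Without each tumour in turn, between 3 and 15 of the 23 sterol genes were called lower (10 with all tumours), the fewest without KO 2 or WT 1 and the most without WT 2. Without KO 3 or WT 3 the count was 4, without KO 1 it was 9, without KO 4 it was 7 and without WT 4 it was 8. The share of all genes called lower also moved, from 10.8% with all tumours to 5.59% without KO 2, 6.73% without WT 3, 7.67% without WT 1 and 9.3% without WT 2. It was 7.64% without KO 1, 7.61% without KO 3, 10.3% without KO 4 and 10.6% without WT 4. Acat2, Sqle, Msmo1, Acly and Scd2 were called in each of these 8 fits, with adjusted p of at most 0.0396, 0.0353, 0.0255, 0.0408 and 0.0261 respectively. Hmgcs1, Fdps, Fdft1, Lss, Nsdhl, Sc5d and Srebf1 each lost the call without at least 1 of several tumours, with adjusted p of up to 0.1, 0.0719, 0.077, 0.0883, 0.0765, 0.0714 and 0.116. Leaving out WT 1 ended the call for every one of these 7 genes. Leaving out KO 2 ended it for them too, and leaving out KO 3 or WT 3 ended it for all but Lss and all but Srebf1, respectively. Lss and Srebf1 also lost it without KO 1, Fdft1 and Nsdhl without WT 4, and Hmgcs1, Fdft1, Lss, Nsdhl and Srebf1 without KO 4. The estimates stayed below 0 for these 7 genes in all 8 fits.

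Other genes of the same routes moved in mixed directions. Of 15 other sterol genes, which handle sterol transport, esterification and regulation as well as synthesis, 3 were called higher and 1 lower, which is 20% and 6.67% against 11.1% and 10.8% of all genes, with a median log2 fold change of 0.10. The 3 that rose act outside the enzymatic route. Soat1, which esterifies cholesterol, had a log2 fold change of 0.61 (adjusted p = 0.00496). Npc2, which carries cholesterol out of lysosomes, had 0.58 (adjusted p = 0.0152), and Rnf145, a sterol-responsive ubiquitin ligase, had 0.61 (adjusted p = 0.00689). The macrophage markers given above moved with these 3 genes, and their part was not tested. Of 19 other fatty acid genes tested, 2 were called higher (10.5%) and 4 lower (21.1%), with a median of -0.06. Mlxipl, which encodes the carbohydrate-responsive transcription factor ChREBP, rose from 18.5 ± 5.07 to 38.2 ± 13.1 CPM (1.05, adjusted p = 0.0317). Oxsm, of mitochondrial fatty acid synthesis, rose too (0.46, adjusted p = 0.0194). Me1, the malic enzyme that supplies NADPH (-0.71, adjusted p = 0.0342), Acsl3, a long-chain acyl-CoA synthetase (-0.62, adjusted p = 0.00697), and Tecr, the enoyl reductase of elongation (-0.28, adjusted p = 0.0182), fell. Scd3, a further desaturase copy, fell as well (-1.44, adjusted p = 0.0166). Its level was near the limit of detection, at 0.471 ± 0.0687 CPM in the KO group and 1.3 ± 0.497 in the WT group. Reads shared among the Scd copies also make its value uncertain.

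Markers of fat cells, which can carry much lipid synthesis RNA, varied by tumour, and WT 2 was the highest for several of them. Adipoq was at most 2.01 CPM in the KO group and 5.45 in WT 2, and Cfd was at 33 CPM in WT 2, 7.98 in KO 3 and 3.75 in KO 4 and below 1 CPM in the other tumours. Fabp4 was at 18.8 CPM in WT 2, 15.6 in WT 3 and 11.5 in KO 3, Plin1 was at most 1.21 CPM in any tumour, and Lep had no count in 6 of 8 tumours. The 10 adipocyte markers summed to between 124 and 198 CPM in the KO group and between 147 and 225 in the WT group. Pnpla2 made up most of that sum in every tumour, at 102 ± 33.7 CPM in the KO group and 134 ± 20.4 in the WT group. The sums therefore mostly follow Pnpla2. Of the 4 with enough counts to be tested, 1 was called, Lipe, a hormone-sensitive lipase also found in other cells, which was higher. The part of these markers in the results was not tested.

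Because the cells were sorted for EpCAM and Epcam itself differed, the 37 genes were also set against Epcam, by scaling each library to its Epcam count. This raises the KO minus WT difference of nearly every gene. Of the 14727 genes tested, 75.8% were called, 75.2% higher and 0.638% lower, by the same edgeR test, with a median log2 fold change of 0.89. On this scale 25 of the 37 genes were called higher and 0 lower. By role these were 8 of 18 sterol enzymes (median 0.42), all 5 regulators (median 0.59) and 12 of 14 fatty acid enzymes (median 0.82). Estimates below the median of all genes were found for 16 of 18 sterol enzymes, all 5 regulators and 8 of 14 fatty acid enzymes. This scaling shifts all genes by a similar amount, so these counts largely repeat the result on CPM. Any median also has as many genes below it as above it. The whole 95% interval lay below that median for 11 sterol enzymes, 2 regulators and 1 fatty acid enzyme. The share of all genes with such an interval was not computed, so these counts have no background to be read against.

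Per 100 Epcam counts, the summed sterol genes were at 246 to 331 counts in the KO group and 168 to 224 in the WT group. The fatty acid enzymes were at 301 to 489 and 191 to 263. Both sums were higher in all 4 tumours labelled KO. Of single genes, 8 sterol and 8 fatty acid genes had all KO tumours above all WT tumours per Epcam count and none had the reverse, where 64.9% and 0.326% of all genes did. Acly measured 225, 234, 155 and 128 counts per 100 Epcam counts against 58.5, 52.6, 51.7 and 78.6 (log2 fold change 1.62, interval 1.08 to 2.16, adjusted p = 0.000353). Its interval lay wholly above the median of all genes, and KO 1 and KO 2 were again the highest. Fads1 measured 25.4, 27.8, 23.9 and 20.7 against 11.9, 5.61, 5.13 and 13.3 (1.45, adjusted p = 0.00116). Unlike on CPM, Fads1 was called on this scale. Scd2 measured 65.9, 68.1, 76.5 and 44.7 against 62.4, 54.5, 75.6 and 71.7 (-0.05, interval -0.48 to 0.38, adjusted p = 0.822). The Scd2 groups overlapped fully here, and it was the only gene of the 37 with an estimate below 0. Msmo1 measured 18.6, 17.8, 15.4 and 12.4 against 14.0, 11.4, 12.2 and 14.0 (0.32, interval -0.03 to 0.66, adjusted p = 0.0866). Hmgcs1 measured 32.2, 30.0, 27.9 and 24.6 against 26.0, 17.8, 20.7 and 21.3 (0.42, adjusted p = 0.0284), with KO 4 below WT 1. The 9 enzymes called lower on CPM all had estimates above 0 on this scale, and Hmgcs1, Nsdhl and Sc5d among them were called higher. Ebp (1.08, adjusted p = 0.000719) and Mvd (0.99, adjusted p = 0.00101) had the largest sterol estimates on both scales. The direction of most members flips between the scales. Scaling to the 22 epithelial markers in place of Epcam gave 9 sterol and 12 fatty acid genes called higher and 0 lower, where 73.5% of all genes were called, 72.7% higher and 0.774% lower. Scaling by library totals alone gave 18 sterol and 5 fatty acid genes called lower and only Acly called higher, where 27.2% of all genes were called, 6.11% higher and 21.1% lower. The count of sterol genes called higher per Epcam count ranged from 8 to 18 of 23 when each tumour was left out in turn, against 13 with all 8. In the same fits 68.5% to 77.5% of all genes were called higher.

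The WT label covers 2 genotypes, and a fit with all 3 genotypes compared them over 15284 genes. Between f/+ and +/+ tumours, 0 of the 37 genes were called by edgeR's quasi-likelihood test, against 0.00654% of all genes (1 gene). At an unadjusted p below 0.05 there were 3, Tm7sf2 (-0.59, f/+ minus +/+), Acss2 (-0.80) and Elovl1 (-0.28), where 5.12% of all genes had such a p (782 of 15284). Estimates were below 0 for 19 of the 23 sterol genes (median -0.148) and for 8 of the 14 fatty acid enzymes (median -0.058). Of all genes 51.1% were below 0, with a median of -0.005. Genes of 1 tumour share a library, so these counts are not independent. With 2 tumours a genotype, differences of this size were not resolved. Against f/+ tumours alone, Msmo1 (-0.56, adjusted p = 0.0295) and Scd2 (-0.77, adjusted p = 0.0316) were called lower in f/f tumours and Acly higher (0.83, adjusted p = 0.0344), where 13.3% of all genes were called, 6.6% lower and 6.73% higher. Against +/+ tumours alone, 6 were called lower and 0 higher, where 6.79% of all genes were called, 3.66% lower and 3.13% higher. These 6 were Acat2 (-0.62, adjusted p = 0.0442), Fdps (-0.61, 0.0457), Fdft1 (-0.66, 0.0444), Tm7sf2 (-0.71, 0.0455), Msmo1 (-0.59, 0.0401) and Scd2 (-1.12, 0.0311). Acly was not called against +/+ tumours (0.64, adjusted p = 0.0845). Both comparisons share the 4 f/f libraries. Whether the difference depends on the control genotype is the f/+ minus +/+ difference itself, for which no member was called.

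Per length, on the deposited FPKM scale (fragments per kilobase of transcript and library size), the genes spanned a wide range. In tumours labelled WT Acly was the most abundant at 61.8 ± 4.91 FPKM, followed by Scd2 at 55.6 ± 11.0, which did not differ from it beyond their spread. Msmo1 (32.2 ± 2.21) and Srebf2 (32.2 ± 2.25) came next, level with each other, and then Elovl1 at 29.4 and Hmgcs1 at 27.8. In tumours labelled KO Acly was again first at 90.8 ± 15.8 FPKM, followed by Elovl1 at 28.1 and Scd2 at 25.4 ± 4.13. Scd2 thus moved from a level near that of Acly to one well below it. Msmo1 moved from rank 3 to rank 6 among the 37, at 19.1 ± 1.56 FPKM. Scd1 was far below Scd2 in both groups, at 3.43 ± 0.428 FPKM in tumours labelled WT and 2.68 in those labelled KO. The lowest in tumours labelled WT were Acacb at 0.306 and Idi1 at 0.338 FPKM. The transcript used in this table differs from the counted one for 6 genes (Pmvk, Mvd, Fdps, Srebf1, Scap and Acly). Exons of 10 members overlap another gene on the opposite strand and exons of 4 overlap one on the same strand, per the GENCODE annotation. Per the file headers the counts were made with HOMER's plus-strand setting, which keeps opposite-strand pairs apart only if the libraries were stranded, and that is not stated. Same-strand overlaps are not separated by strand in either case. The opposite-strand overlaps are in Hmgcs1, Idi1, Fdft1, Lss, Cyp51, Srebf1, Scap, Acss2, Elovl1 and Elovl6. The same-strand overlaps are with other genes in Fdps and Tm7sf2 and with microRNA genes in Srebf1 and Scd2.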

How the data were processed

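RNA sequencing libraries of 8 tumours were analysed, 4 labelled KO and 4 labelled WT. The authors deposited whole-number counts per gene, made with HOMER's analyzeRepeats.pl on mm10 exons with 1 transcript kept per gene, per the file headers. They also deposited FPKM values made by the same program, per the file headers. STAR 2.4.0k, edgeR 3.6.8, FastQC 0.11.2 and HOMER appear, without their roles, in the submitters' processing notes. Here counts were tested with edgeR 4.0.16 (R 4.3.3): TMM scaling, filterByExpr (minimum count 10, minimum total 15), glmQLFit and glmQLFTest, with Benjamini-Hochberg adjustment over all genes tested. The Epcam fit set library sizes in proportion to Epcam counts. Standard errors and intervals were derived from the F statistic. The fits were tested on simulated data. Every pair of libraries differed by more than counting noise. Alternatives were DESeq2 1.42.0, limma 3.58.1 on log2(FPKM + 1), other scalings, and leaving out tumours. Promoters came from RefSeq (GRCm38.p6) and overlaps from GENCODE. The 37 genes, the lists and the tests were chosen with earlier results of these data known. All members, the called other pathway genes with the smallest p (up to 6 a list), Lifr and Epcam could be named. Counts of 14938875 to 22698340 per library give every member at least 166 counts a library, except Idi1 (20 to 56) and Acacb (45 to 126). An allele shared by all tumours and a called gene outside the 37 are not reported here.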

Additional observations from a re-analysis of the deposited data

Results flagged for a closer look

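Within each group of 4 tumours, the highest or lowest tumour was compared with the nearest other by Dixon's ratio at its 95% critical value, for the 37 genes and Epcam. Of 76 groups tested, 8 exceeded it, where chance gives about 1 in 20. In 4 of these genes WT 3 stood above the other tumours labelled WT. Acat2 was at 22.2 CPM there against 18.1 to 18.8, Idi1 at 2.51 against 1.24 to 1.41, Srebf1 at 209 against 142 to 149, and Scd2 at 673 against 437 to 474. KO 1 stood above the other tumours labelled KO for Cyp51 at 101 CPM against 75 to 77.2, for Msmo1 at 77.8 against 62 to 64.1 and for Insig1 at 93.3 against 63.1 to 67.6. KO 4 did so for Mvk, at 14.2 CPM against 12.1 to 12.2. Genes of 1 tumour share a library, so these are not independent.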

How the results depend on the processing

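Scaling decided the direction. With library totals alone (all-gene median log2 fold change -0.165), 18 sterol and 5 fatty acid genes were called lower, with medians of -0.56 and -0.246, and of all called genes 22.5% were higher against 50.7% with TMM. Scaled to the epithelial list (all-gene median 0.833), 9 sterol and 12 fatty acid genes were called higher and 0 and 0 lower, with medians of 0.424 and 0.756, and 28 genes changed sign: Acat2 0.264, Hmgcs1 0.344, Mvk 0.424, Pmvk 0.326, Idi1 0.617, Fdps 0.312, Fdft1 0.278, Sqle 0.292, Lss 0.179, Cyp51 0.475, Tm7sf2 0.352, Msmo1 0.243, Nsdhl 0.434, Hsd17b7 0.172, Sc5d 0.435, Dhcr7 0.715, Srebf1 0.374, Srebf2 0.527, Scap 0.52, Insig1 0.731, Stard4 0.501, Acss2 0.354, Fasn 0.628, Scd1 0.678, Fads2 0.788, Fads3 0.49, Elovl5 0.724 and Elovl7 0.514. By their construction these scalings shift all genes together. DESeq2 called 13 sterol and 2 fatty acid genes lower (14% of all genes lower). limma on log2(FPKM + 1) called 18 sterol and 4 fatty acid genes lower (fatty acid median -0.268). With a pseudocount of 0.1 it called 18 and 5 (medians -0.569 and -0.298), and with no filter 16 and 4 (fatty acid median -0.264). Of all genes 21.4%, 21.5% and 13.4% were lower in these fits, with all-gene medians of -0.128, -0.156 and -0.048. With +/+ controls only, 4 sterol genes were called lower and 0 fatty acid genes higher, and with f/+ controls only 1 sterol gene was called lower, where 3.93% and 6.01% of all genes were lower. Without the most acinar tumour of each group (KO 1 and WT 2), 0 fatty acid genes were called higher and 2 lower (Acly 0.579, adjusted p 0.052, edgeR). Of all genes, 6.33% were higher and 6.58% lower in that fit, against 11.1% and 10.8% with all tumours. Relative to Epcam, the exact permutation test gave 8 sterol and 8 fatty acid genes higher, each at an unadjusted p of 0.0286. That is the smallest p this test can give, so only genes whose groups do not overlap could pass. The result thus repeats the non-overlapping genes per Epcam count, an arrangement with KO above WT found for 64.9% of all genes. Genes with small estimates changed sign as follows. With library totals Mvd was -0.089, Acaca -0.144, Acacb -0.157 and Elovl1 -0.064. With FPKM + 0.1 Mvd was -0.073, Acaca -0.13 and Elovl1 -0.058. With FPKM + 1 they were -0.068, -0.082 and -0.056, and with no filter Acacb was -0.033. With +/+ controls Mvd was -0.102, Acaca -0.079 and Elovl1 -0.022, and with f/+ controls Dhcr7 was 0.033, Acacb -0.039 and Fads2 0.042. Without the acinar tumours Mvd was -0.112 and Acaca -0.062. The cause was not tested.

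Leaving out each tumour in turn gave 3 to 15 sterol genes and 1 to 2 fatty acid genes lower, with medians of -0.466 to -0.337 and -0.21 to -0.01. Of all genes, 5.59% to 10.6% were called lower in these fits. Relative to Epcam, leaving out each tumour gave 8 to 18 sterol and 8 to 12 fatty acid genes higher. Their medians were 0.403 to 0.567 and 0.693 to 0.972. In these fits 68.5% to 77.5% of all genes were called higher, with all-gene medians of 0.815 to 0.974. For f/+ minus +/+ the medians of the sterol and fatty acid genes were -0.333 to 0 and -0.201 to -0.054. Estimates that changed sign ranged from -0.028 to 0.229 for Mvd, -0.366 to 0.047 for Idi1, -0.205 to 0.014 for Dhcr7, -0.223 to 0.142 for Insig1, -0.042 to 0.096 for Acaca, -0.2 to 0.173 for Acacb, -0.22 to 0.161 for Fads2, -0.019 to 0.41 for Elovl6 and -0.15 to 0.087 for Scd2 relative to Epcam. No paired analysis was possible because replicate numbers follow the order of listing and pair no tumours. Idi1 (20 to 56 counts a library) and Acacb (45 to 126) have the fewest counts, and what depth limits was not tested.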
